A study of Mus musculus with 384 samples.

Results

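Among the CD45+ cells of the mouse kidney, wells with many reads of Il1b, the gene of the cytokine interleukin-1 beta, were compared with wells that had few. The cells were single PDGFRB+ cells from kidneys of mice aged 8 weeks, sorted by FACS-seq, in which each cell enters a well of a plate and becomes 1 library. The series has 384 wells on 4 plates of 96, a PDGFRB+CD45- plate and a PDGFRB+CD45+ plate in each of 2 batches, and its title places it in work on monocytes, myofibroblasts and kidney fibrosis. The letters UUO stand in the well names without an explanation, and no strain, treatment or animal is named. A plate was therefore taken as 1 sample, no p-value was computed from cells, and the other batch is the only repeat. Both groups compared come from the CD45+ plates and share tissue, age, sort and digestion. Their wells were not spread alike over the plates, as given below.

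A CD45+ well was kept with 50000 or more reads and a summed level of C1qa, C1qb and C1qc of 500 CPM or more, where CPM stands for counts scaled to the same total in each well. These 3 genes encode the chains of complement C1q, which tissue macrophages make. Wells were then selected on Il1b itself, as Il1b-high with 200 CPM or more and as Il1b-low below that. Batch 1 gave 76 wells of sufficient depth, 69 of them past the C1q limit, of which 29 were Il1b-high and 40 Il1b-low. Batch 2 gave 78, 76, 41 and 35. In all, 145 of the 384 wells were used, 70 Il1b-high and 75 Il1b-low. The C1q genes had medians of 12850 and 12201 CPM in Il1b-high and Il1b-low wells of batch 1 and 23383 and 13437 CPM in batch 2. Because Il1b and C1q chose the wells, their levels are a description and support nothing.

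Interleukin-1 beta is a fever-causing cytokine that leukocytes make as an inactive precursor. Transcription is switched on by NF-kB downstream of Toll-like and cytokine receptors, and the precursor is cut by caspase-1 inside a complex called the inflammasome before release. Macrophages, monocytes and neutrophils are its main sources, and in the injured kidney it acts on tubule cells, endothelium and stroma through the receptor Il1r1. Ccl3 and Cxcl2, which were named as markers of the Il1b-high wells, encode chemokines that draw monocytes and neutrophils, and NF-kB also switches on both.

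The 250 bases before the annotated start are shown for the splitting gene, its 2 companion chemokines and the 3 genes of NF-kB feedback, stress signalling and acid sensing on which later results turn. Sequences are RefSeq's for GRCm38.p6, 5′ to 3′ on the gene's strand, and capitals mark matches to the kappaB consensus of NF-kB (Cxcl2, Nfkbia) or to the CRE, TGACGTCA (Dusp1). They lie at chr2:129371140-129371389 (Il1b, minus strand), chr11:83649379-83649628 (Ccl3, minus), chr5:90903649-90903898 (Cxcl2, plus), chr12:55492648-55492897 (Nfkbia, minus), chr17:26508473-26508722 (Dusp1, minus) and chr12:98268385-98268634 (Gpr65, plus).
Il1b: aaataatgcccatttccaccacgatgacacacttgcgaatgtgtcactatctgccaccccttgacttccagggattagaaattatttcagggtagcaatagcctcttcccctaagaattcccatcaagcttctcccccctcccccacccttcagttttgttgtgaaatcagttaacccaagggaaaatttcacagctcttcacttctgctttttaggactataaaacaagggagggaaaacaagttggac
Ccl3: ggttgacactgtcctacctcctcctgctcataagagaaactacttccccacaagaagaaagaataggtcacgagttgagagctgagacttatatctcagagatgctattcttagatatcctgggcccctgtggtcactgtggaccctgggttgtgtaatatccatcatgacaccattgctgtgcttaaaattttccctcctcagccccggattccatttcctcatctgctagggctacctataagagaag
Cxcl2: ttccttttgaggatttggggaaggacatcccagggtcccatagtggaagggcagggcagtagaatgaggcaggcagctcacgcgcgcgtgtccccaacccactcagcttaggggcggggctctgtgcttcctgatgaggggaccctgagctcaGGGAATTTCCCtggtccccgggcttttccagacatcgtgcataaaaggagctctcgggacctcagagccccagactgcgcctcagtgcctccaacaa
Nfkbia: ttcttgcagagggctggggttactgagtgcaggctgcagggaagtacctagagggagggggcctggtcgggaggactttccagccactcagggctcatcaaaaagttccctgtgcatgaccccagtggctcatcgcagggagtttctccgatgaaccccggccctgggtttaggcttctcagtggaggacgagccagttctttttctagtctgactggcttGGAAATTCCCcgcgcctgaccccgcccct
Dusp1: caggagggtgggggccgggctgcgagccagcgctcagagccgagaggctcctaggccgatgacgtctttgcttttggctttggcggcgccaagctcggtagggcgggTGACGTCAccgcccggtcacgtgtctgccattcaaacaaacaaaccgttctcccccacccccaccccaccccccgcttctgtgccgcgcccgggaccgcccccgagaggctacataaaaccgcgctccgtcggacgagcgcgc
Gpr65: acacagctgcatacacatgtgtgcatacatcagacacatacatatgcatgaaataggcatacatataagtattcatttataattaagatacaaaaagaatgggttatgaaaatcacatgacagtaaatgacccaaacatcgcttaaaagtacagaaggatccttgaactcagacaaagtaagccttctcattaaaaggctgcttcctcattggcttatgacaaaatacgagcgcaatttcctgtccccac
The motifs searched, on both strands, were kappaB, AP-1 (TGANTCA) and CRE. Of the 32851 promoters of this length in the RefSeq table, 7.25% held kappaB, 6.75% AP-1 and 1.55% CRE. The Cxcl2 window held 2 overlapping kappaB matches that began 97 and 96 bases before the start, the Nfkbia window 1 at 29 bases, and the Dusp1 window 1 CRE at 143 bases. None of these motifs was found in these windows of Il1b, Ccl3, Ccl12 or Gpr65, which says only that the letters are not in them. A match is a description of sequence and not a measured binding site.

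Macrophage markers other than the C1q genes that chose the wells were uneven, some in nearly every well and others not. Aif1, a macrophage actin-binding protein, had reads in every well of all 4 groups, and Lyz2, lysozyme, reached 100 CPM in 29 of 29 and 39 of 40 wells in batch 1 and in every well in batch 2. Pdgfrb, the gene of the sorted receptor, was near 0: 1 of 29 and 0 of 40 wells had a read in batch 1, and 4 of 41 and 1 of 35 in batch 2. Ptprc, which encodes CD45, had reads in 29 and 35 wells of batch 1 and in 37 and 32 of batch 2.

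In 19 of the 145 wells the summed markers of another cell type exceeded the summed markers of macrophages. The macrophage sum included C1qa, C1qb and C1qc, which chose the wells, so this rule leans toward macrophages. Of the 8 Il1b-high wells among them all were led by neutrophil markers (6 in batch 1, 2 in batch 2). The 11 Il1b-low wells (8 and 3) were led by neutrophil, kidney tubule, endothelial, fibroblast, B cell or T and NK cell markers. The 4 wells with most Il1b in batch 1 belonged to the first kind: replicates 7, 78, 54 and 61 held 25452, 15408, 12355 and 9908 CPM of Il1b beside 8120, 26360.5, 16109 and 61680 CPM of neutrophil markers and 2467, 2719, 2788 and 14414.5 CPM of macrophage markers. In batch 2 the wells were replicates 85 and 54, with 8266 and 6229 CPM of Il1b and 64179 and 10580 CPM of neutrophil markers. Wells short of this rule could also hold them: replicate 79, with the most Il1b of batch 2 (12666 CPM), had 20273 CPM of neutrophil and 20909 CPM of macrophage markers, and stays in all values without the 19 wells. The C1q genes made up 8308 CPM of its macrophage markers. Neutrophil markers of 5000 CPM or more were found in 7 of 29 Il1b-high and 2 of 40 Il1b-low wells of batch 1 and in 3 of 41 and 0 of 35 of batch 2. Low wells could hold the same markers, as replicate 13 of batch 1 did with 62107 CPM of neutrophil markers and 106 CPM of Il1b.

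Over the whole list of 10 neutrophil markers, the median summed level was 68.4 CPM in Il1b-high and 68.8 CPM in Il1b-low wells of batch 1 (ranges 11.7 to 68976 and 3.49 to 62107 CPM), and 14.7 and 11.2 CPM in batch 2 (0 to 64179 and 0 to 221 CPM). Ngp and Camp, granule genes of immature neutrophils, were at 0 in the Il1b-high wells of both batches. Whether a well held a neutrophil, more than 1 cell or carried-over RNA was not tested, so it is said where a call was lost without the 19 wells, a comparison chosen after their values were seen.

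**Figure D1:**
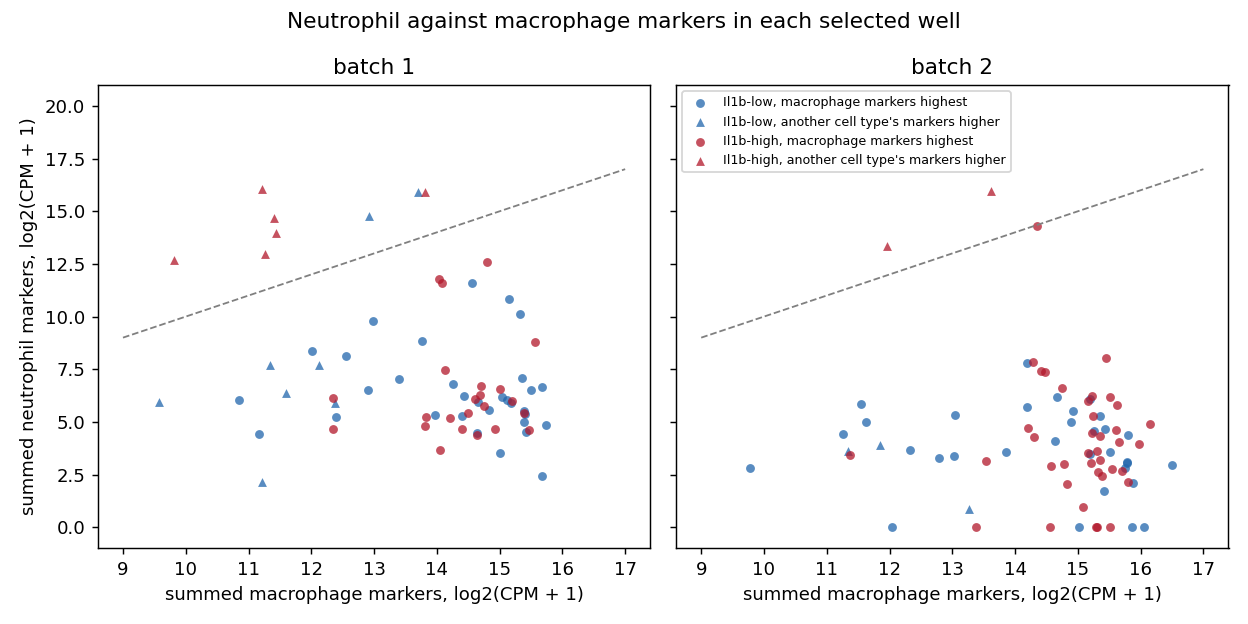
Summed neutrophil markers against summed macrophage markers in each selected well, both as log2(CPM + 1), for batch 1 (left) and batch 2 (right). Triangles are wells in which any other cell type's markers exceeded the macrophage markers, and the dashed line marks equal sums. In the Il1b-high group 6 triangles of batch 1 and 2 of batch 2 lie above the line.

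Il1b itself was spread over a wide range among the Il1b-high wells and was low but rarely absent in the others. In batch 1 the Il1b-high wells held 248 to 25452 CPM, with a median of 1884, and the Il1b-low wells 0 to 177 CPM, with a median of 40.3. In batch 2 the values were 204 to 12666 CPM (median 2804) and 0 to 183 CPM (median 40.1). The groups cannot overlap, because the limit of 200 CPM made them. Over the summed reads of each group Il1b stood at 2223 against 36.6 CPM in batch 1 and 2664 against 43.6 CPM in batch 2, log2 ratios of 5.89 and 5.90. Without the 19 wells the medians were 1432 and 44.5 CPM in batch 1 and 2761 and 37.2 CPM in batch 2, and the highest well of batch 1 held 6338 CPM.

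Levels on the 2 sides of the limit were not far apart. The highest low wells stood at 177 and 158 CPM in batch 1 and 183 and 147 CPM in batch 2, and the lowest high wells at 248 and 248 CPM and at 204 and 225 CPM. Il1b-high wells with 1000 CPM or more numbered 17 of 29 and 34 of 41, and those under 500 CPM 8 and 4. Only 2 of 40 and 1 of 35 Il1b-low wells had no Il1b read.

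The low level in Il1b-low wells was above that of the other sort gate, which was on other plates. Gate and plate cannot be told apart here, and carry-over of reads between wells of a plate was not tested. With each well thinned to 50000 reads, an Il1b read was found in 77.5% of Il1b-low wells of batch 1 (31 of 40, exact 95% interval 61.5 to 89.2%) and 74.3% of batch 2 (26 of 35, 56.7 to 87.5%). In CD45- wells, which should lack the gene, the share was 5.06% (4 of 79, 1.40 to 12.5%) and 4.88% (4 of 82, 1.34 to 12%). All Il1b-high wells had a read, as their selection fixed. Median depths before thinning were 217656 and 299199 reads in Il1b-low wells and 302826 and 348004 reads in CD45- wells. These intervals count wells of 1 plate per gate and batch, and cover counting error only. The Poisson intervals of pooled levels count reads, which without molecular identifiers are not independent molecules. They can be too narrow and do not cover the spread between wells.

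**Figure D2:**
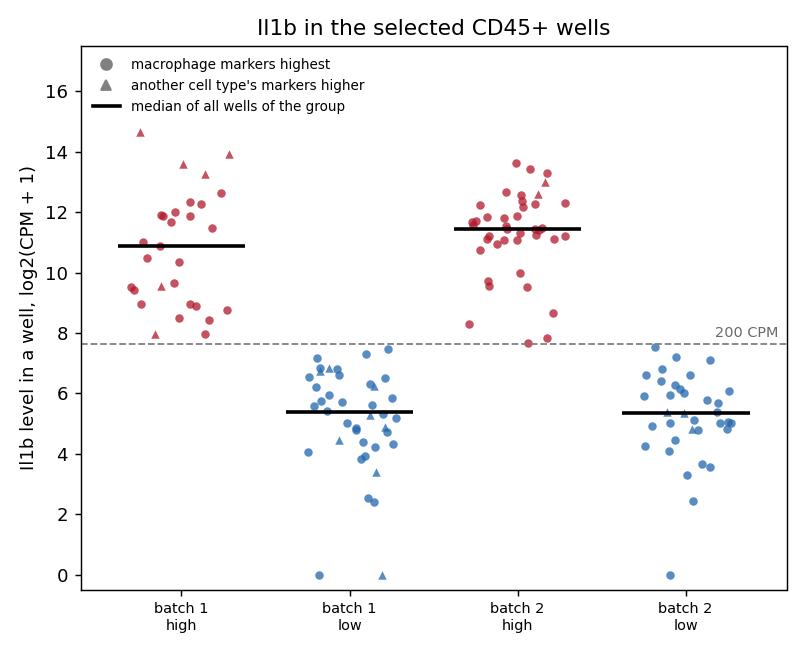
Il1b level of every selected well, as log2(CPM + 1), by batch and group. Black bars are group medians, the dashed line is the limit of 200 CPM that made the groups, and triangles are the wells led by another cell type's markers, which include the 4 highest wells of batch 1.

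Il1b-high wells made up 42% of the macrophage wells of batch 1 (29 of 69, exact 95% interval 30.2 to 54.5%) and 53.9% of batch 2 (41 of 76, 42.1 to 65.5%). Without the 19 wells the shares were 41.8% (23 high and 32 low, 28.7 to 55.9%) and 54.9% (39 and 32, 42.7 to 66.8%). The median depth was 430786 reads in Il1b-high and 217656 reads in Il1b-low wells of batch 1, against 296868 and 299199 in batch 2, over a range of 54875 to 1246070 reads. Genes with a read had medians of 2922 and 2426.5 per well in batch 1 and 2972 and 2648 in batch 2. At an equal 50000 reads they were 1379 and 1325, and 1322 and 1336. Plate columns 1 to 6 held 18 of 29 Il1b-high and 18 of 40 Il1b-low wells of batch 1. In batch 2 they held 24 of 41 and 16 of 35. Plate rows A to D held 10 and 20 wells in batch 1, and 17 and 18 in batch 2. The part of plate position in the differences was not tested.

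Across all genes, few differences repeated between the batches. Reads were summed over the wells of a group and given as pooled CPM, and high was divided by low after adding 1 CPM to each. A gene was compared with 20 or more pooled CPM over the selected wells of each batch, which left 3209 of 40594. It was called higher or lower when the pooled levels differed 2-fold or more in the same direction in both batches and still did when any single well was left out. By this criterion 77 genes were higher in Il1b-high wells (2.4% of those compared) and 48 were lower (1.5%). Il1b is 1 of the 77 through the choice of wells. Without the 19 wells led by another cell type's markers, 89 genes were higher and 28 lower of 3023, with 58 and 20 of them shared with the first calls.

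Most called genes were seen in few wells. The 76 higher genes other than Il1b reached 100 CPM in a median of 3 of 29 wells in batch 1 and 4 of 41 in batch 2, and 65 and 61 of them did so in at most 5 wells. The 48 lower genes did so in a median of 3 wells of each Il1b-low group. Without Il1b, the ratios of the 3208 genes had Pearson's r of 0.04 and Spearman's rho of 0.04 between batches, and 51.3% had the same sign. These are values across genes, which share wells within a batch. Median sizes of the ratio were 1.10 and 0.93.

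**Figure D3:**
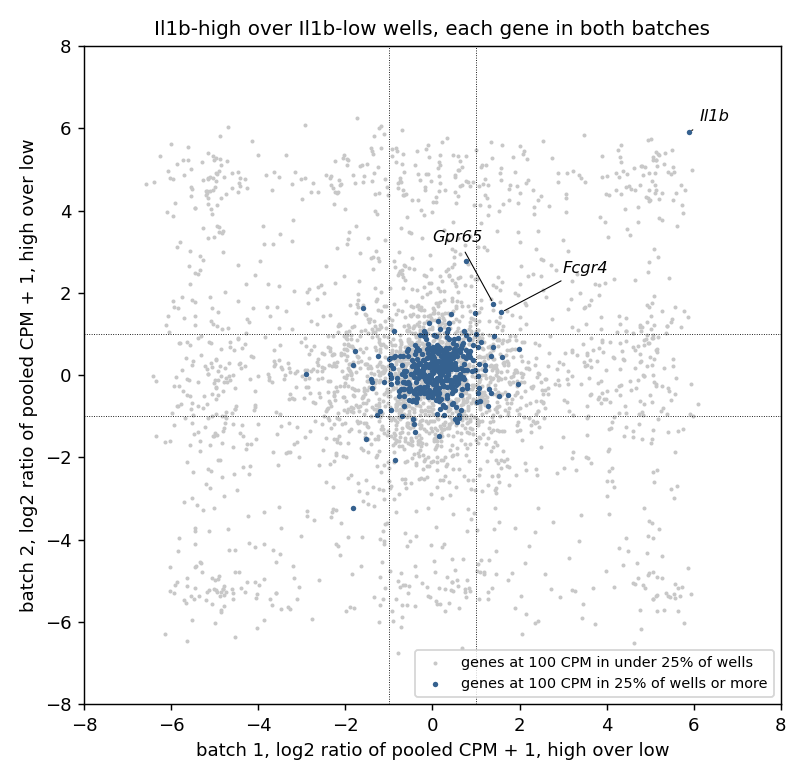
Log2 ratio of pooled CPM plus 1, Il1b-high over Il1b-low wells, in batch 1 and batch 2 for each of the 3209 genes compared. Blue points are the 403 genes at 100 CPM in 25% of the wells or more, grey points the rest, and dotted lines mark 2-fold. Blue points other than Il1b cluster near 0, with Gpr65 and Fcgr4 past 2-fold in both batches, and grey points spread to large ratios in every quadrant.

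Restricted to the 403 genes with 100 CPM or more in at least 25% of the selected wells of each batch, 3 met the criterion as higher (0.744%) and none as lower (0%). These were Il1b, Gpr65 and Fcgr4, also without the 19 wells. Apart from Il1b, the ratios of these genes had r of 0.21 and rho of 0.18 between batches over 402 genes, 57.7% had the same sign, and median sizes were 0.37 and 0.34. Pearson's r was 0.09 without the 19 wells.

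Gpr65, chosen after its values were seen, is a proton-sensing receptor of leukocytes that raises cyclic AMP in acid surroundings. It held 0 to 5568 CPM in the Il1b-high wells of batch 1 (median 84.2) and 0 to 4257 CPM in the Il1b-low wells (median 47.1). In batch 2 the ranges were 1.57 to 6354 CPM (median 114) and 0 to 2637 CPM (median 24.7). The groups overlapped, with 100 CPM or more in 14 of 29 against 11 of 40 wells, and in 21 of 41 against 7 of 35. Pooled levels were 1187 and 449 CPM, and 794 and 238 CPM. The log2 ratios were 1.40 and 1.73 (2.39 without Il1b-low replicate 65 of batch 2), and 1.21 and 1.51 without the 19 wells.

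Fcgr4, an activating Fc receptor for IgG on myeloid cells, stood at 465 and 155 CPM in batch 1 and 593 and 205 CPM in batch 2. It reached 100 CPM in 12 of 29 and 10 of 40 wells, and in 14 of 41 and 5 of 35. In batch 1 its medians were 40.5 and 21.6 CPM (up to 3032 and 1328), and in batch 2 16.5 and 10.8 CPM (up to 3964 and 2256), so most wells of either group held little and the groups overlapped. Log2 ratios were 1.58 and 1.53, and 1.28 and 1.30 without the 19 wells. Without those wells the order of the medians was reversed in batch 1, at 22.4 CPM in Il1b-high and 26.4 CPM in Il1b-low wells. In batch 2 they were 16.5 and 10.8 CPM.

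Pooled reads give deep wells more weight, so levels were also averaged over wells as log2(CPM + 1), each well counting the same. By this measure, with a difference of 1 in place of 2-fold, 28 genes were higher (0.873%) and 2 lower (0.0623%), of which 5 and 1 were also called by pooled reads. The median difference of all genes on this scale was 0.17 in both batches, and that of the genes found in many wells 0.58 and 0.37, so single values should be read against that shift. Of the 28, 19 were genes found in many wells. Thinning every well to 50000 reads gave 48 higher genes and 1 lower of 2923, with 24 of the 28 among the 48, and leaving out the 19 wells gave 44 and 2, with 23 of the 28 among the 44.

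These genes, chosen after their values were seen, included Nfkbia (mean log2 difference 1.72 and 1.38), Dusp1 (2.40 and 1.87), Cd14 (1.76 and 1.70) and Ccl4 (1.31 and 1.25). Btg2, an antiproliferative early gene, had 1.52 and 1.32, and Alox5ap, which hands arachidonic acid to 5-lipoxygenase for leukotriene synthesis, 1.41 and 1.82. Srgn, the proteoglycan core of secretory granules, had 1.17 and 1.34, and Laptm5, a lysosomal membrane protein of leukocytes, 1.70 and 1.92. The C-type lectin Mgl2, a marker of alternative activation, had 1.80 and 1.18, and Slfn2 1.65 and 1.93. Btg2, Alox5ap and Mgl2 no longer met the criterion on this scale without the 19 wells. Pooled ratios of Btg2, 0.47 and 0.53, and Alox5ap, 0.49 and 0.62, were smaller than these. Ccl3 had 0.56 and 1.46 and Cxcl2 1.16 and 2.25 on this scale, and neither met the criterion.

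Ccl3 and Cxcl2 were the chemokines named with the Il1b-high wells, and neither separated the groups in both batches. Ccl3 ranged from 11 to 12689 CPM in the Il1b-high wells of batch 1 (median 202) and from 12.6 to 34785 CPM in the Il1b-low wells (median 133). In batch 2 it ranged from 6.39 to 17122 CPM (median 251) and from 4.44 to 6159 CPM (median 76.2). The groups overlapped over nearly their whole ranges. Pooled levels were 2699 CPM (Poisson 95% interval 2669 to 2728) against 1929.9 (1905 to 1955) in batch 1 and 1987 (1965 to 2009) against 1082 CPM (1063 to 1101) in batch 2. The log2 ratio of these levels was 0.48 and 0.88, both under the 2-fold limit of 1.

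Cxcl2 had a median of 1162 CPM in Il1b-high wells against 98.2 in Il1b-low wells of batch 1 (ranges 12.3 to 41949.9 and 13.1 to 107270 CPM). In batch 2 the medians were 978 and 86.1 CPM (ranges 11 to 22154 and 8.89 to 63129 CPM). The typical Il1b-high well thus held more Cxcl2, while 1 Il1b-low well of each batch held the most of all. The pooled log2 ratio of batch 1 was 0.17, or 0.80 without Il1b-low replicate 10, and that of batch 2 was 1.12. Without the 19 wells the pooled ratios were -0.12 and 1.06.

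Counted by wells of 100 CPM or more, Ccl3 was found in 17 of 29 Il1b-high and 22 of 40 Il1b-low wells of batch 1 (58.6%, 38.9 to 76.5%, and 55%, 38.5 to 70.7%). In batch 2 it was found in 25 of 41 and 14 of 35 (61%, 44.5 to 75.8%, and 40%, 23.9 to 57.9%). Cxcl2 was found in 21 and 20 wells of batch 1 (72.4%, 52.8 to 87.3%, and 50%, 33.8 to 66.2%) and in 31 and 15 of batch 2 (75.6%, 59.7 to 87.6%, and 42.9%, 26.3 to 60.6%). With every well thinned to 50000 reads the counts were 16 and 25, and 26 and 15, for Ccl3, and 22 and 21, and 32 and 17, for Cxcl2. Both chemokines together were found in 13 and 16 wells of batch 1 and 19 and 8 of batch 2, and neither in 4 and 14 of each batch. In CD45- wells 0 of 79 and 1 of 82 reached 100 CPM of Ccl3, and 1 and 1 of Cxcl2.

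Among the other CC chemokines, Ccl4, an attractant of monocytes and T cells, had medians of 9869 CPM in Il1b-high and 960.4 CPM in Il1b-low wells of batch 1, and 3242 and 409 CPM in batch 2. Its pooled log2 ratios were 0.47 and 0.53, and Il1b-low wells reached up to 371679 CPM in batch 1. Ccl12, a monocyte attractant that binds Ccr2, had medians of 8539 and 789.6 CPM in batch 1 and 2231 and 577 CPM in batch 2, with pooled ratios of 1.34 and 0.45. The 2 monocyte attractants Ccl2 and Ccl7 had ratios of -0.46 and 0.38, and 0.80 and 0.13, and Ccl6 -1.40 and -0.16. Ccl7 in batch 1 was -0.28 without Il1b-high replicate 67 and in batch 2 1.00 without Il1b-low replicate 65, Ccl2 in batch 2 0.96 without Il1b-low replicate 36, and Ccl6 in batch 1 -0.28 without Il1b-low replicate 80. Of the 11 CC chemokines listed, 9 had enough reads to compare, of which 0 met the criterion in either direction, 4 stood above 0 in both batches and 3 below. Of the 8 CXC chemokines listed, 5 were compared, 4 stood above 0 in both batches, and 1, Cxcl10, met the criterion, with list medians of 0.70 and 1.12. Among all genes compared, 25.5% stood above 0 in both batches, 25.9% below, and 2.4% met the criterion as higher.

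**Figure D4:**
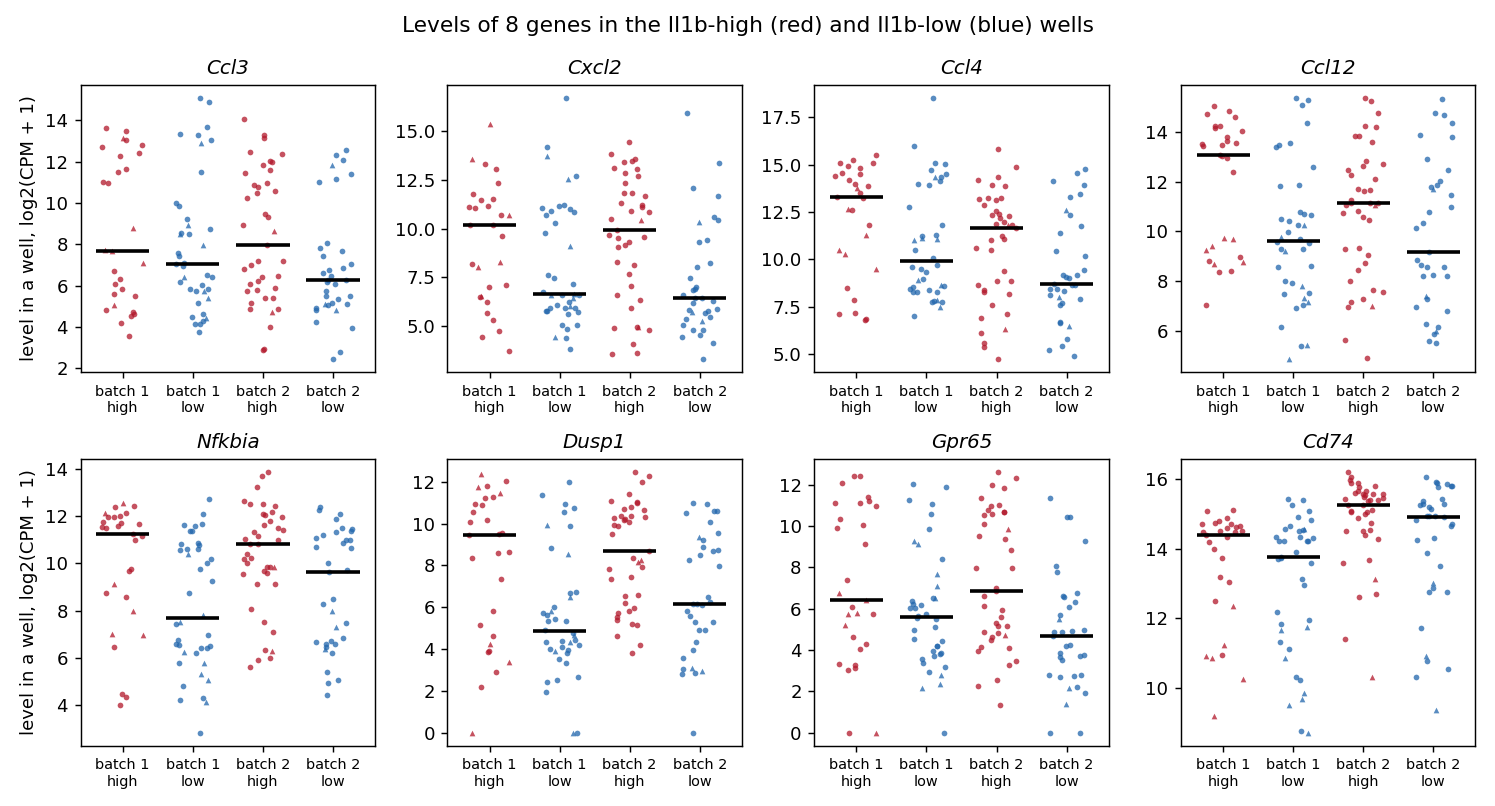
Levels of 8 genes in every selected well, as log2(CPM + 1), with group medians as black bars and triangles for wells led by another cell type's markers. Every pair of groups overlaps, and for all 8 genes the Il1b-high median lies above the Il1b-low median in both batches.

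Nfkbia encodes I-kappa-B alpha, the inhibitor that NF-kB itself switches on and that ends its activity. It had a median of 2451 CPM in the Il1b-high wells of batch 1 (14.9 to 6032) and 202 CPM in the Il1b-low wells (6.01 to 6815). In batch 2 the medians were 1787 (47.3 to 15226) and 801 CPM (20.3 to 5321). Pooled log2 ratios were 1.38 and 0.68, and 1.16 and 0.49 without the 19 wells, so that only batch 1 passed 2-fold. In CD45- wells Nfkbia reached 100 CPM in 33 of 79 and 27 of 82.

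Of the 14 genes of NF-kB subunits and inhibitors, 7 could be compared, and 1, Rela, met the criterion, against 2.4% of all genes compared. Rela encodes the p65 subunit, and its result rested on 3 wells of 100 CPM or more in each Il1b-high group and none in the low groups. Its log2 ratios of 5.13 and 5.42 were 4.17 without Il1b-high replicate 21 of batch 1 and 4.60 without Il1b-high replicate 9 of batch 2. With the Il1b limit at 500 CPM the ratio of Rela in batch 1 was -3.31. Nfkbiz, an atypical inhibitor, had ratios of -0.29 and 0.96, of opposite sign. Rel, another subunit, stood at -6.13 and 1.21, or -5.20 without Il1b-low replicate 40 of batch 1 and 5.35 without Il1b-low replicate 14 of batch 2.

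Dusp1, a phosphatase that switches off p38 and JNK kinases, showed the same order of medians: 713 against 27.7 CPM in batch 1 (0 to 5267 and 0 to 4129) and 418 against 71.1 CPM in batch 2 (13 to 5729.7 and 0 to 2062). It reached 100 CPM in 19 of 29 against 11 of 40 wells, and in 28 of 41 against 15 of 35. Its pooled log2 ratios were 1.41 and 0.95, just short of the limit in batch 2. The groups overlapped in both batches.

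Dusp1 belongs to a list of 22 immediate early genes, which also respond to tissue dissociation, and all wells went through enzymatic digestion per the labels' protocols. Among the 17 compared, 9 stood above 0 in both batches and 4 below, with medians of 0.13 and 0.39. Over all genes compared, 25.5% stood above, 25.9% below, and 2.4% met the criterion as higher. The part of dissociation in these values was not tested. Klf2, a transcription factor of quiescence named after its values were seen, was the 1 that met the criterion. Its ratios were 1.62 and 4.17, or 4.50 without Il1b-low replicate 73 of batch 1, and it no longer met it without the 19 wells (0.22 and 4.04). The AP-1 genes Fos and Jun had ratios of 0.13 and 0.54, and -1.0 and 0.39.

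No other compared member of the interleukin-1 pathway was among the genes found in many wells. Of 14 genes in the list of the IL-1 family and inflammasome, 7 could be compared, and Il1b and Il18bp, the secreted trap of interleukin-18, met the criterion. Il1b did so through the choice of wells, and 2.4% of all genes compared did. Il18bp had log2 ratios of 5.44 and 2.36, or 3.69 without Il1b-high replicate 66 of batch 1 and 4.42 without Il1b-low replicate 3 of batch 2. Nlrp3, the sensor of the inflammasome that activates interleukin-1 beta, reached 100 CPM in 3 of 29 and 2 of 40 wells of batch 1 and in 4 of 41 and 0 of 35 of batch 2. Its ratios were 1.37 (5.11 without Il1b-low replicate 73) and 5.28. Pycard, the adaptor of that complex, stood at 0.56 and -0.87, of opposite sign.

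Il1a, the sister cytokine, and Casp1, the protease, were under the minimum of 20 CPM over all selected wells of a batch that a gene needed to be compared. Il1a was at 0.25 CPM in the Il1b-high and 49.1 CPM in the Il1b-low wells of batch 1, with 2 Il1b-low wells at 100 CPM, and had no read in batch 2. Tnf, the other early cytokine of macrophages, reached 100 CPM in 4 and 1 wells of batch 1 and 4 and 3 of batch 2. Its ratios were 2.30 (3.84 without Il1b-low replicate 73) and -0.30 (0.39 without Il1b-low replicate 86). Both genes were thus seen in few wells of either group.

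Genes of antigen presentation leaned toward the Il1b-high wells as a list. All 10 compared members, of 13, stood above 0 in both batches, with median log2 ratios of 0.61 and 0.56, where 25.5% of all genes compared and 37.1% of those found in many wells did so. None met the 2-fold criterion. As mean log2 levels the list medians were 0.63 and 0.92. Genes found in many wells had medians of 0.58 and 0.37 on that scale, so the list was close to them in batch 1. H2-Aa, the alpha chain of the MHC class II molecule I-A, had medians of 18328 and 11229 CPM in Il1b-high and Il1b-low wells of batch 1 and 22318 and 14816 CPM in batch 2. Cd74, the invariant chain that guides class II to the endosome, had medians of 21534 and 13801 CPM, and 39648 and 31139.9 CPM. The groups overlapped for both genes.

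Pooled log2 ratios were 0.67 and 0.72 for H2-Aa, 0.58 and 0.61 for Cd74, 0.54 and 0.74 for H2-Ab1 and 0.70 and 0.47 for H2-Eb1. Without the 19 wells, 9 of the 10 stood above 0 in both batches, with list medians of 0.43 and 0.40, and the ratios of H2-Aa were 0.47 and 0.56. Cd86, a costimulatory receptor for T cells named after its values were seen, stood at 1.57 and 4.75 and missed the criterion only through Il1b-high replicate 71 of batch 1, without which it was 0.98.

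Macrophage markers were close in pooled level and less so by well. Over the 10 markers, 9 were compared, and the list medians were 0.10 and 0.11 in pooled reads and 0.33 and 0.86 as mean log2 levels. The C1q genes, which chose the wells, reached 5000 CPM in 22 of 29 Il1b-high and 26 of 40 Il1b-low wells of batch 1 and in 37 of 41 and 21 of 35 of batch 2. C1qb had well medians of 8704 and 8437 CPM in batch 1 and 15785 and 5445 CPM in batch 2. Pooled, C1qb was at 10704 and 8258 CPM in batch 1 and 14913 and 12552 CPM in batch 2, and Apoe, the lipid carrier of tissue macrophages, had ratios of -0.27 and -0.00. Cd14, the lipopolysaccharide co-receptor, had medians of 1326 and 159 CPM, and 1603 and 358 CPM, with pooled ratios of 0.63 and 0.57. Of the 15 resident macrophage markers, 10 were compared and 1, Fcgr4, met the criterion, against 2.4% of all genes compared.

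Ccr2, the receptor that brings monocytes from blood, had ratios of opposite sign in the batches. It reached 100 CPM in 5 of 29 Il1b-high and 12 of 40 Il1b-low wells of batch 1 (17.2%, 5.85 to 35.8%, and 30%, 16.6 to 46.5%) and in 18 of 41 and 4 of 35 of batch 2 (43.9%, 28.5 to 60.3%, and 11.4%, 3.20 to 26.7%). At an equal 50000 reads the counts were 6 and 14, and 18 and 5. Its pooled log2 ratios were -0.89 (-1.61 without Il1b-high replicate 34) and 1.74 (2.89 without Il1b-low replicate 58). The list of 16 monocyte markers, 11 of them compared, had medians of -0.94 and 0.57, also of opposite sign, and 0 met the criterion.

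The list of lipid-handling and scar-associated macrophage genes had 8 of 15 compared members below 0 in both batches and 2 above, with medians of -0.81 and -0.39 in pooled reads. Of all genes compared, 25.9% stood below 0 in both, and 20.6% of those found in many wells. As mean log2 levels the list medians were above 0, at 0.08 and 0.15. None met the criterion, and without the 19 wells the medians were -0.50 and -0.17. Spp1, the matrix protein osteopontin of scar-associated macrophages, had almost equal medians in the groups: 219 and 224 CPM in batch 1 and 70.4 and 71.2 CPM in batch 2. Its pooled ratios of -1.82 and -3.22 came from few Il1b-low wells, of which the highest held 39039.5 and 45195 CPM. They were -0.68 without Il1b-low replicate 35 of batch 1 and -2.38 without Il1b-low replicate 75 of batch 2.

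Interferon-induced genes had 5 of 9 compared members above 0 in both batches and 0 past the criterion, with medians of 0.83 and 0.47. Over all genes compared, 25.5% stood above 0 in both batches and 25.9% below. Glycolysis genes had medians of opposite sign (0.74 and -0.40). Of 14 oxidative phosphorylation genes all were compared, 6 stood below 0 in both batches and 1 above, with medians of -0.02 and -0.32. Of 4 alternative activation genes compared, 2 met the criterion as higher, against 2.4% of all genes compared. Clec10a, a lectin of alternatively activated macrophages and dendritic cells, had ratios of 3.47 and 5.83, or 5.30 without Il1b-low replicate 22 of batch 1 and 5.23 without Il1b-high replicate 27 of batch 2, and reached 100 CPM in 3 and 5 Il1b-high wells. Il4ra, the receptor chain for interleukin-4, had 3.33 and 2.47, or 1.74 without Il1b-high replicate 8 of batch 1, and 5.43 without Il1b-low replicate 21 of batch 2. Il4ra no longer met the criterion without the 19 wells (1.55 and 2.29), which left 1 gene of the list.

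**Figure D5:**
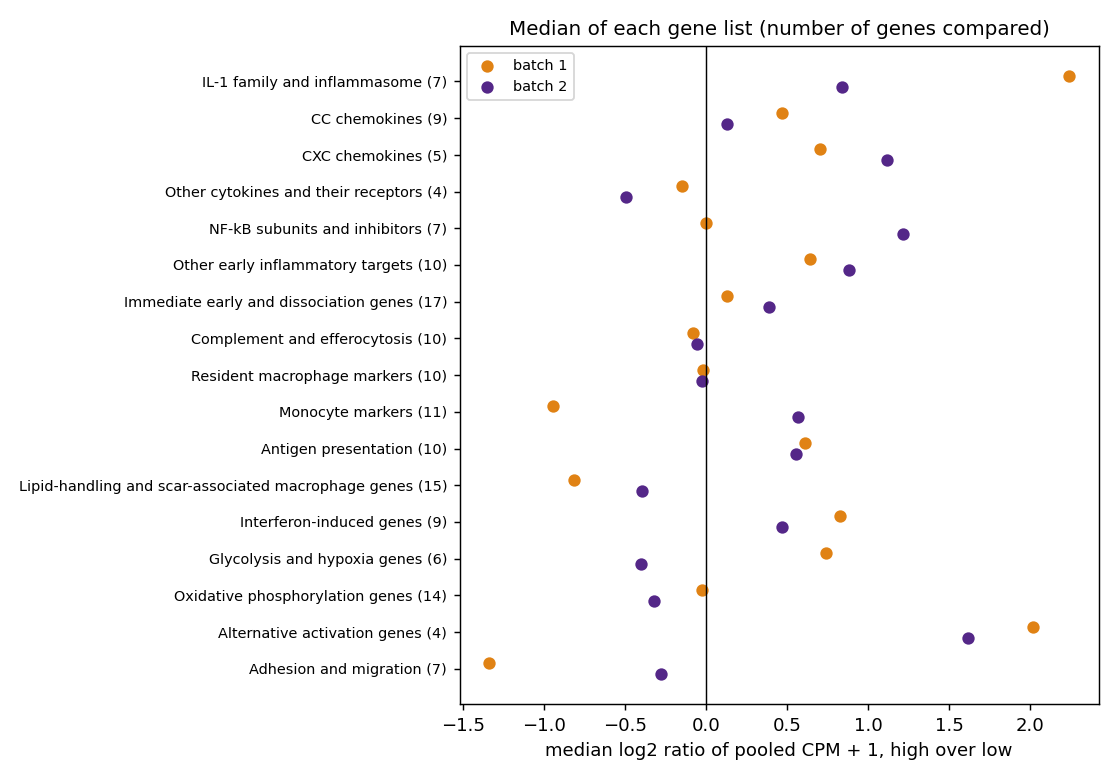
Median log2 ratio of pooled CPM plus 1, Il1b-high over Il1b-low wells, for each gene list with at least 4 genes compared (number in brackets), with batch 1 in orange and batch 2 in purple. Antigen presentation lies near 0.6 in both batches, monocyte markers and glycolysis lie on opposite sides of 0, and the IL-1 list contains Il1b itself.

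The 11 genes other than Il1b with the largest smaller ratio among those higher by pooled reads were Tradd, Cxcl10, Dusp22, Slc43a2, Arap1, Rela, Nudcd2, Zcchc24, Acer2, Ylpm1 and Polb. Their log2 ratios lay between 4.85 and 5.73, each came from 1 to 5 Il1b-high wells of 100 CPM or more per batch, and 20 of the 22 values moved by over 1.5 times with 1 well. Cxcl10, the interferon-induced chemokine for T cells, had 3 and 5 such wells and ratios of 5.01 (3.88 without Il1b-high replicate 95) and 5.73. Tradd, an adaptor of TNF receptor signalling, had 5 and 2 and ratios of 5.54 (4.84 without Il1b-high replicate 58) and 4.94 (1.40 without Il1b-high replicate 41). With the Il1b limit at 500 CPM Tradd stood at -3.60 in batch 2. Of the 11, 9 still met the criterion without the 19 wells, and Tradd (5.47 and 4.86) and Zcchc24 (3.43 and 4.88) did not. The weakest value without 1 well was 1.14, for Ylpm1 in batch 2 without Il1b-high replicate 70.

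The 12 lower genes chosen in the same way included Mnat1, Igkc, Zpr1, Ube2m, Ccdc82, Mkl2, Pcnt, Rbbp6, Sike1, Snhg18 and Trabd2b, with log2 ratios from -6.04 to -4.58. Each of the 12 was at 100 CPM in 1 to 5 Il1b-low wells per batch, and all 24 values moved by over 1.5 times with 1 well. Igkc, the immunoglobulin kappa constant region of B cells, had 3 and 2 such wells and ratios of -5.91 (-4.85 without Il1b-low replicate 24) and -5.09 (-3.45 without Il1b-low replicate 14). Against Il1b-low wells under 20 CPM of Il1b only, Igkc stood at 0.74 in batch 1. Of the 12, 6 no longer met the criterion without the 19 wells, namely Zpr1, Ube2m, Mkl2, Sike1, Snhg18 and Trabd2b. The weakest value without 1 well was -1.38, for Snhg18 in batch 1 without Il1b-low replicate 91. RefSeq promoters were matched for 10 of the higher and 7 of the lower genes chosen by size, Il1b included. A kappaB match was found in 4 of the 10 (Acer2, Cxcl10, Dusp22 and Slc43a2) and 0 of the 7, against 7.25% of all promoters. AP-1 was found in 1 of the 10 (Cxcl10) and 1 of the 7 (Mnat1), against 6.75%, and CRE in 0 and 0, against 1.55%. Apart from Il1b these genes rested on 1 to 5 wells of 100 CPM or more per batch. The counts describe sequence only, and a part of NF-kB was not tested.

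S100a9, the calprotectin subunit that fills neutrophils, was 1 of 2 neutrophil markers compared and met the criterion, against 2.4% of all genes compared. Its pooled levels were 872 against 39.5 CPM in batch 1 and 168 against 9.18 CPM in batch 2. It no longer met it without the 19 wells (338 against 26.1 and 103 against 10.9 CPM). The log2 ratio of all wells, 4.43 and 4.05, was 3.53 without Il1b-high replicate 8 of batch 1 and 2.80 without Il1b-high replicate 79 of batch 2.

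Of 7 markers of mast cells and basophils only 1, Hdc, the histamine-making enzyme, could be compared. It met the criterion, against 2.4% of all genes compared, and its log2 ratios were 5.18 and 2.87. Both of its batch 1 wells with 100 CPM or more were among the 19 wells, and without the 19 wells the ratios were -0.75 and 2.69. With all wells they were 4.15 without Il1b-high replicate 7 of batch 1 and 4.58 without Il1b-low replicate 19 of batch 2. The mast cell genes Cpa3 and Kit and the basophil gene Mcpt8 had no read in the Il1b-high wells of either batch. In Il1b-low wells Mcpt8 and Kit had none in batch 1, and Cpa3 and Mcpt8 had none in batch 2. Of 8 proliferation markers 3 were compared, and 1, Pcna, met the criterion, against 2.4% of all genes compared. Its ratios were 1.61 and 2.26, or 2.22 without Il1b-low replicate 63 of batch 1 and 3.03 without Il1b-low replicate 91 of batch 2.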

How the data were processed

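Raw read counts per gene of FACS-seq wells were analysed for 4 plates, and the deposited counts are whole reads per gene and well as the authors left them. The submitters' processing notes name STAR 3.0.4, Subread and featureCounts 1.4.5, and the role of each, the genome build and the annotation are not given in the sources used here. Repeated gene lines were dropped (598 of 41192 in batch 1, with 2.39% of the counts, and 595 of 41228 in batch 2, with 2.42%), which left 40594 genes. Levels are CPM of a well's remaining reads.

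The members, the marker lists and the gene lists were chosen with earlier results of these data known. No doublet caller was run. Wells were selected on depth, C1q and Il1b as the text gives. Labels name no animal, so a plate is 1 sample, and no test was made. A call needed 2-fold or more in the same direction in both batches and without any single well, among genes of at least 20 pooled CPM, with 1 CPM as pseudocount. Genes named are the 12 per direction with the largest smaller ratio (mitochondrial, ribosomal, pseudogene and predicted genes left out), the 4 most abundant of each list, and Il1b, Ccl3, Cxcl2, C1qa, C1qb, C1qc, Ptprc, Pdgfrb, Ccr2, Tnf, Il1a, Nlrp3, Fos and Jun. Some genes that the rule picks are not reported here. Other names were added after their values were seen: called list members, Gpr65, genes called by mean log2 level, and Ccl2, Ccl7 and Cd86.

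Of the 29 lists, those not described in the text gave these median log2 ratios in batch 1 and batch 2: complement and efferocytosis -0.08 and -0.05, other cytokines and receptors -0.15 and -0.50, other early inflammatory targets 0.64 and 0.88, stromal growth factors 3.19 and -0.20, adhesion and migration -1.34 and -0.27, T and NK cells -5.63 and -0.27, B cells -0.21 and -0.51, fibroblasts and pericytes -2.72 and -3.53, endothelium -0.98 and 1.40, and tubule 0.59 and -0.97. No gene of these lists met the criterion, dendritic cells had 1 gene compared and red blood cells 0. Of the other early inflammatory targets, 7 of 10 compared stood above 0 in both batches and 0 below. Among all genes compared, 25.5% stood above. Without the 19 wells led by another cell type's markers, 6 of the 10 did, with medians of 0.50 and 0.55.

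Selected wells had 54875 to 1246070 reads. Exact binomial intervals (95%) count wells and cover counting error only. Reads carry no molecular identifiers, so Poisson intervals (95%) can be too narrow, and they do not cover the spread between wells. Log levels of selected wells correlated at most at 0.65 in batch 1 and 0.675 in batch 2, so no well was taken as a repeat of another. Python 3.11.15, numpy 2.4.6, pandas 2.3.3 and scipy 1.17.1 were used, with edgeR 4.0.16 for TMM scaling only. The call rule was also run on simulated wells. Their planted changes were larger than its fold limit, in genes more abundant than its minimum. That run therefore says nothing of calls near those limits. Alternatives covered scaling, depth, thresholds and single wells. Leaving out wells led by another cell type's markers, the restriction to genes in many wells and the thinned mean log2 level were chosen after seeing the data.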

Additional observations from a re-analysis of the deposited data

Results flagged for a closer look

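Il1b also appeared in wells that the selection left out. Of the CD45+ wells under the C1q limit, 2 of 7 in batch 1 held 200 CPM or more, the highest 1008 CPM. In batch 2 it was 1 of 2, with 1705 CPM. Among CD45- wells of batch 2, 1 of 82 passed 200 CPM, with 309.6 CPM, against 0 of 79 in batch 1, where the highest held 11.1 CPM. These wells enter no comparison, and what cells they held was not tested.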

How the results depend on the processing

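No paired analysis was possible because well numbers only name wells and no test was made. The calls of 77 higher and 48 lower genes depended on the rule. They were 28 and 2 with mean log2 levels, 29 and 21 at 4-fold, 240 and 273 without the single-well condition, 363 and 409 in batch 1 alone, and 437 and 320 in batch 2 alone. A limit of 500 CPM of Il1b gave 32 and 121. With low wells under 20 CPM only, 319 and 3 were called from 11 and 7 low wells, the Il1b-high shares were 72.5% and 85.4%, and the median of all genes moved to 0.37 and 1.00. Lower genes alone numbered 31 with a pseudocount of 10, 75 at 5 CPM, 80 with no filter and 28 without the wells led by another cell type's markers. Restricting to genes in many wells gave 3 and 0, and thinned mean log2 levels 48 and 1. Other settings (thinning, TMM, an Il1b limit of 100 CPM, C1q of 1500 CPM, 100000 reads, repeated lines kept, collagen wells left out) left the higher count within 1.5 times, though not always the same genes: thinning gave 53 and 65, with 35 of the 77 and 25 of the 48 among them.

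Some named genes changed sign. Il4ra in batch 1 stood at -0.018 by mean log2 level, -0.054 thinned and -0.90 at 500 CPM of Il1b, and Dusp22 in batch 2 at -0.52 after thinning. At 500 CPM, Rela (-3.31) and Slc43a2 (-4.58) in batch 1, and Tradd (-3.60) and Zcchc24 (-1.68) in batch 2, were reversed. With low wells under 20 CPM, Igkc (0.74) and Snhg18 (0.44) in batch 1, and Mnat1 (1.31), Snhg18 (0.41), Trabd2b (0.88) and Ube2m (0.46) in batch 2, were. Without collagen wells Hdc (-1.60) and Mkl2 (0.16) in batch 2 were, and without the wells led by another cell type's markers Hdc in batch 1 (-0.75). The cause was not tested. Single-gene values are limited, since most called genes reached 100 CPM in few wells, and 1 plate per batch gives no error between animals. The part of depth in this was not tested.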
